A study of Mus musculus with 5 samples.

Results

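The 9 Pax genes of the mouse, Pax1 to Pax9, were read in H3K27me3 ChIP-Seq peak lists of mouse embryonic fibroblasts (MEFs). They were taken by symbol from the GENCODE vM1 annotation of the mm9 genome and make up 9 of its 22350 protein-coding genes on the chromosomes with peaks. For each gene, the start site (the 5′ end of the annotated gene), the gene body and a window of 50 kb on each side of the start site were set against the peaks of every list. The MEF lines came from a mid-gestation mouse embryo whose Eed gene, which encodes a PRC2 subunit, carries loxP sites, and every group shares these floxed alleles. The lines were transduced with lentivirus from a vector with the EF1a promoter, for stable expression of histone H3.3 K27R, histone H3.3 K27M or human EZHIP (hEZHIP). There was 1 library per group, so there is no replicate spread, and the values describe these libraries only. The lists hold positions in bins of 200 bp with no height or read count, so the depth is unknown, and a place outside every peak is one where no peak was called. The K27R list served as the reference, and neither the parental cells nor the line with deleted Eed, a single clone, were analysed here.

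PRC2 places H3K27me3, a mark of silenced developmental genes. In many cell types it is laid down around CpG islands and spreads over the neighbouring chromatin. H3.3 K27M, the histone of diffuse midline glioma, and EZHIP, a protein of posterior fossa ependymoma, both inhibit PRC2, whereas K27R replaces the same lysine by arginine. Pax proteins are transcription factors with a paired DNA-binding domain that specify organs and cell lineages of the embryo. They fall into subgroups of close relatives, namely Pax1 and Pax9, then Pax2, Pax5 and Pax8, then Pax3 and Pax7, and finally Pax4 and Pax6.

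The promoters of 5 genes are shown because they stand for the patterns found at the family. Pax2 had its start site in a peak of all 3 lists, Pax1 and Pax3 in the K27R and K27M lists only, Pax4 in all 3 lists with hardly any CG, and Pax8 in none. Each sequence runs 5′ to 3′ along the gene, from 250 bases before to 50 bases after the GENCODE start, in mm9, with every CG in capitals. The positions are chr19:44830289-44830588 on the + strand for Pax2, chr2:147187411-147187710 on the + strand for Pax1, chr1:78193660-78193959 on the - strand for Pax3, chr6:28399304-28399603 on the - strand for Pax4 and chr2:24331070-24331369 on the - strand for Pax8.
Pax2: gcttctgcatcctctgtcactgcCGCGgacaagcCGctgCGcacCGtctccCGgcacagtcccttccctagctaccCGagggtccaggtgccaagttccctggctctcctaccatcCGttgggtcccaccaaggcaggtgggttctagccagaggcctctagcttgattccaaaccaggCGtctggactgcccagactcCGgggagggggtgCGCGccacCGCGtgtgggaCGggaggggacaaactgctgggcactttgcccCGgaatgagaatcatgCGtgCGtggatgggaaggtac
Pax1: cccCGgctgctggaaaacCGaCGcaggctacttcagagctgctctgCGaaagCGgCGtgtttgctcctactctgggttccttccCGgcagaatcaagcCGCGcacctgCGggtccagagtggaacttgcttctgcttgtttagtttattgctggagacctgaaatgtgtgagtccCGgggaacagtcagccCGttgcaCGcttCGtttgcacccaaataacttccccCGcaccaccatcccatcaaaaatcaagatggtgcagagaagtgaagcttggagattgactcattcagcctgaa
Pax3: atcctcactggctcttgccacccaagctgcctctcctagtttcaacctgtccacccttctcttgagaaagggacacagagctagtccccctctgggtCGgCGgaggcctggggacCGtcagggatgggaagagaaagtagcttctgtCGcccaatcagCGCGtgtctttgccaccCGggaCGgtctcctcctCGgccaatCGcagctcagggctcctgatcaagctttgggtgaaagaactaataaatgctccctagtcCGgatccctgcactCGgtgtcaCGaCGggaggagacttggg
Pax4: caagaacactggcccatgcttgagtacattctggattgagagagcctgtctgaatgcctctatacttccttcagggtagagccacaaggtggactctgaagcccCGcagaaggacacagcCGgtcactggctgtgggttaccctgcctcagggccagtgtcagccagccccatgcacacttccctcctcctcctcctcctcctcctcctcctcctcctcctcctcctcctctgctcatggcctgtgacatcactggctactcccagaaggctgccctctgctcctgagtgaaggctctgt
Pax8: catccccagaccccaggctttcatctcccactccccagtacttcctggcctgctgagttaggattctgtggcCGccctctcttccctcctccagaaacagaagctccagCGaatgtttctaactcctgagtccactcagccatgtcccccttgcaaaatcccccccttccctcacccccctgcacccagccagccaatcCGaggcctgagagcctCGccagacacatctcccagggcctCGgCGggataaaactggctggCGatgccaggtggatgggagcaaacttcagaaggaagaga

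These 300 bases held 18 CG at Pax2, 15 at Pax1, 14 at Pax3, 2 at Pax4 and 7 at Pax8. The other members had 24 at Pax9, 18 at Pax6, 14 at Pax7 and 8 at Pax5. At Pax2, Pax5 and Pax9 this depends on the start. The RefSeq promoters of Pax2 held 7, 23 and 30 CG. That of Pax5 (chr4:44723517-44723816), beside the start group of 12 transcripts, held 23, and that of Pax9 held 11. The starts shown for Pax1 and Pax2 have 1 transcript each. Their start groups with the most transcripts lie 3.07 and 1.34 kb downstream. Over all protein-coding genes the median was 11, and 95.1% of the promoters of this length held at least 1 CG, so that its presence alone tells little. The median was 18 for genes in all 3 lists, 15 for genes in the K27R and K27M lists but not the EZHIP list, and 5 for genes in the K27R list only. The first 2 of these groups were nearly alike, with quartiles of 9 and 28 and of 8 and 26, against 2 and 13 for the last. Pax4 lay well below the median of the group in which it was found, whereas Pax1 and Pax3 had about as many CG as the median of theirs.

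The family was widely covered in K27R cells, and most of its start sites were also in peaks of K27M and EZHIP cells. Members were chosen with earlier results of these data known. The shares of all genes are therefore given for description and do not test an excess. In the K27R list, 8 of the 9 Pax start sites lay in a peak, where 30.1% of all protein-coding start sites did. In the K27M list the number was again 8 of 9, against 9.02% of all genes. In the EZHIP list it was 6 of 9, against 7.73% of all genes. The same 6 genes, Pax2, Pax4, Pax5, Pax6, Pax7 and Pax9, were in peaks of all 3 lists, against 6.6% of all genes. Of genes with a start site in a K27R peak, 29.9% were in a K27M peak and 25.6% had an EZHIP peak, where all 8 Pax genes and 6 of them were. Of genes in both the K27R and the K27M list, 73.4% were also in the EZHIP list, so that 6 of 8 Pax genes is close to the background.

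The covered length differed between lists and between genes. Of 603.6 kb of Pax gene bodies, 480.3 kb (79.6%) lay in K27R peaks, 297.4 kb (49.3%) in K27M peaks and 231.3 kb (38.3%) in EZHIP peaks. For all gene bodies these shares were 21.4%, 2.27% and 1.65%. Relative to the length covered in K27R cells, the Pax bodies had 61.9% in K27M cells and 48.2% in EZHIP cells, whereas all gene bodies had 10.6% and 7.69%. These sums give long genes more weight. By Pax gene, the share ran from 23.3% (Pax1) to 100% (Pax2) in K27M cells. In EZHIP cells it ran from 0% (Pax1 and Pax3) to 100% (Pax2). The median width of the peak over a Pax start site was 338.4 kb in the K27R list, 45.1 kb in the K27M list and 45.3 kb in the EZHIP list, over 8, 8 and 6 genes. For all genes with such a peak the medians were 96.8, 11.8 and 8.4 kb. The near-equal Pax medians of the K27M and EZHIP lists come from different genes. The EZHIP median leaves out Pax1 and Pax3, whose K27M peaks were 8.8 and 38.6 kb wide. Over the 6 genes with both peaks as deposited, the median EZHIP width was 73.2% of the K27M width.

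**Figure D1:**
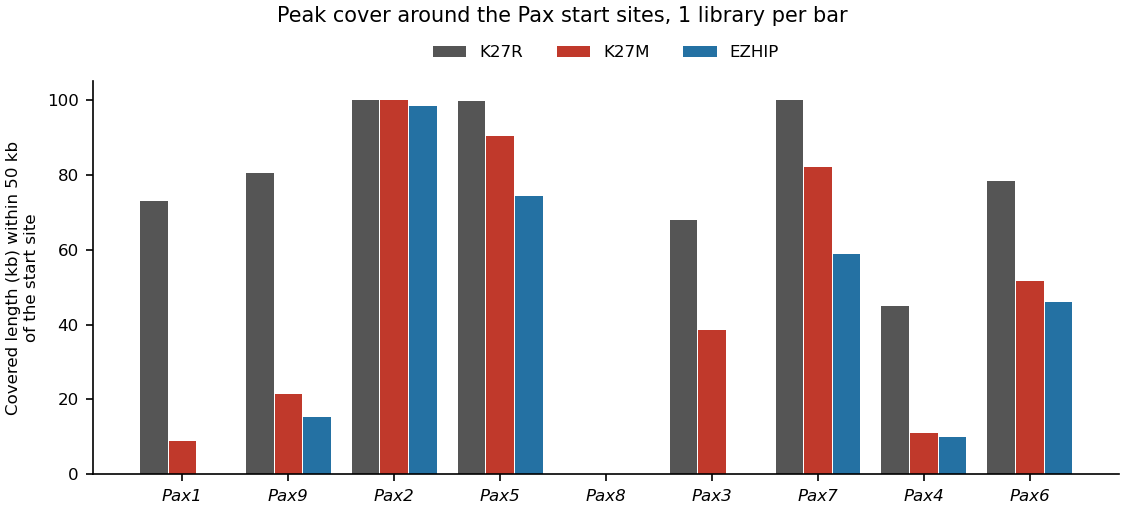
Covered length in kb (vertical axis) within 50 kb on each side of the start site, for each Pax gene (horizontal axis, by subgroup) and for the K27R, K27M and EZHIP lists (1 library per bar, no error bars). Pax2 has bars of 98.4 kb or more in every list, Pax1 and Pax3 have no EZHIP bar, and Pax8 has no bar.

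The lists differed in how near to each other their peaks lie. The K27R list was deposited as enriched regions and the others as peaks. The study's methods give 1 setting for the H3K27me3 calls of these cells, with a maximum gap of 10 kb. Every list held neighbouring peaks nearer than that, so whether the lists were called alike is not known. The shortest distance between neighbouring peaks was 0 bp in the K27R list, 5200 bp in the K27M list and 1200 bp in the EZHIP list, so that nearby enriched stretches that form 1 peak in the K27M list can be several in the EZHIP list. Merging peaks up to 10 kb apart changed the covered length of the Pax bodies to 309.98 kb in K27M cells and 243.1 kb in EZHIP cells, from 297.4 and 231.3 kb. The lists held 12845, 3736 and 4992 peaks with median widths of 16, 6.8 and 4.4 kb. None of 10 genes that mark fibroblasts, among them Col1a1 and Prrx1, had its start site in a peak of any list, where 30.1%, 9.02% and 7.73% of all genes did in the K27R, K27M and EZHIP lists. At shares as low as the last 2, a count of 0 of 10 tells little, and no expression was read here.

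Pax1 and Pax9 act in the sclerotome, which forms the vertebrae, and in the pharyngeal pouches, and Pax9 is also needed for teeth. Pax1 (ENSMUSG00000037034.8) lies at chr2:147187661-147219031 on the + strand. Its start site was in a K27R peak of 305.4 kb (chr2:146905201-147210600) and in a K27M peak of 8.8 kb (chr2:147184201-147193000). The nearest EZHIP peak was 163.1 kb away. Its body had 22.9 kb of cover in K27R cells, 5.34 kb in K27M cells and 0 kb in EZHIP cells. Of its 7 exon blocks, 6 touched the K27R peak, 3 the K27M peak and none an EZHIP peak.

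Pax9 (ENSMUSG00000001497.11), at chr12:57792754-57813809 on the + strand, had its first start in a peak of every list. The widths were 373.6 kb in K27R cells (chr12:57449801-57823400), 21.4 kb in K27M cells (chr12:57778601-57800000) and 15.2 kb in EZHIP cells (chr12:57780401-57795600). The EZHIP peak reached 12.4 kb upstream of the start site but only 2.85 kb into the gene, and it touched 1 of the 4 exon blocks and no coding base. A second group of Pax9 starts lies 3.87 kb downstream of the first and holds 2 of its 3 transcripts. It was inside the K27R and K27M peaks and outside the EZHIP peak. A RefSeq promoter of Pax9, found by exact match at chr12:57796208-57796507, belongs to this second group. The result at Pax9 thus depends on which start is taken, and with the start group of most transcripts the EZHIP list held 5 Pax genes instead of 6.

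The K27R peaks over Pax1 and Pax9 each also held 2 genes of the Nkx2 homeobox family, which specify brain, spinal cord, thyroid and lung. In the region of Pax1 these were Nkx2-2 and Nkx2-4, with start sites 167.7 and 276.5 kb from that of Pax1, and both lay in peaks of all 3 lists. The EZHIP list had 5 peaks in that region, 36.4 kb in all, none of them over Pax1. The 7 CpG islands of the region all touched K27M peaks and 5 touched EZHIP peaks. In the region of Pax9 the neighbours were Nkx2-9 and Nkx2-1, both again in all 3 lists. K27M peaks covered 30.5% of that region and EZHIP peaks 14.5%.

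**Figure D2:**
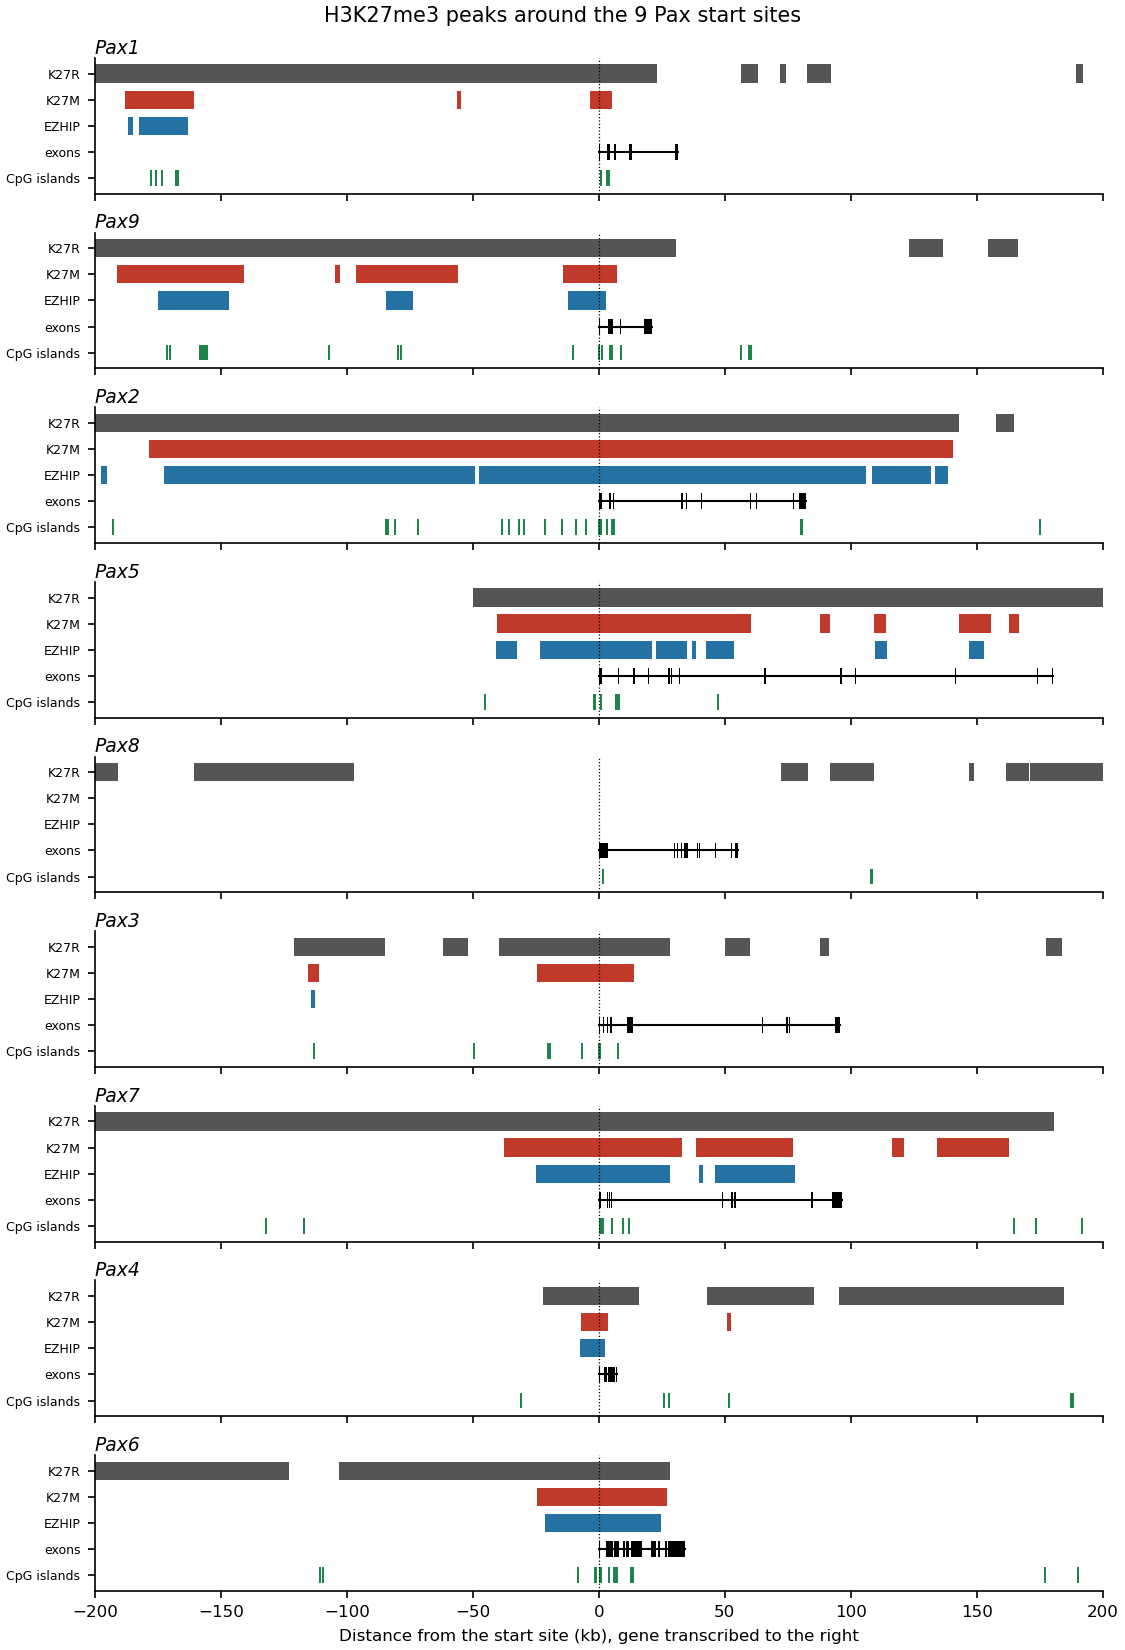
Peaks of the 3 lists around each Pax start site, plotted by distance from the start site in kb (0 at the dotted line, transcription to the right, shown to 200 kb on each side), with exon blocks in black and CpG islands in green. The EZHIP row is empty over the start sites of Pax1, Pax3 and Pax8, and the K27R peaks are wider than the others at all 8 genes that have one.

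Pax2, Pax5 and Pax8 serve kidney and midbrain-hindbrain development (Pax2), B lymphocytes (Pax5) and the thyroid (Pax8). Pax2 (ENSMUSG00000004231.7, chr19:44830539-44912758, + strand) was the most completely covered member. All of its 82.2 kb lay in peaks of every list. Its start site was in peaks of 481.0 kb in K27R cells (chr19:44492601-44973600), 319.0 kb in K27M cells (chr19:44652201-44971200) and 153.4 kb in EZHIP cells (chr19:44783001-44936400). The EZHIP peak had neighbours of 123.6 and 23.2 kb at its sides, with gaps of at most 2600 bp in the joined stretch, and joining peaks up to 10 kb apart gave 311.2 kb, close to the 319.0 kb in K27M cells. In the 50 kb window the cover was 98.4 kb in EZHIP cells, which 2 of the 6735 genes with a start site in a K27R peak reached, Pax2 included. No other autosomal gene in the K27R and K27M lists had a K27M peak as wide at its start site.

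The K27R region of Pax2 held 5 other annotated genes, and coverage within it was uneven by gene. Wnt8b, a secreted signalling protein, was in all 3 lists, whereas Hif1an, Sec31b and both annotated genes named Ndufb8 were in the K27R list only. K27M peaks covered 76.6% and EZHIP peaks 74.9% of the region. Among the 3623 K27R regions that hold a protein-coding start site, those with a K27M peak had a median of 15.2%, and those with an EZHIP peak 11.7%.

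Pax5 (ENSMUSG00000014030.9, chr4:44544017-44724318, - strand) had its whole 180.3 kb body in a K27R peak of 371.4 kb (chr4:44402801-44774200). In K27M cells 85.7 kb of the body was covered by 5 peaks, and in EZHIP cells 57.3 kb by 6 peaks. The start site was in a K27M peak of 101.0 kb (chr4:44663801-44764800) and an EZHIP peak of 44.6 kb (chr4:44703201-44747800). The remaining peaks lay in the gene body as separate stretches. They included stretches of 5.0 and 6.0 kb in EZHIP cells, beginning 109.5 and 146.9 kb from the start site, that overlapped K27M peaks of 4.8 and 12.4 kb. Merging peaks up to 10 kb apart gave 94.2 kb over the start site in EZHIP cells, which is close to the K27M value. In both lists 70.2% of exon bases were covered, although the covered body length differed.

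Pax8 (ENSMUSG00000026976.8, chr2:24276071-24331119, - strand) was the exception. None of its 55.0 kb lay in a peak of any list. The nearest peak to its start site was 72.1 kb away in K27R cells, 285.9 kb away in K27M cells and 285.7 kb away in EZHIP cells. All 3 of its groups of transcript starts and its 1 CpG island were outside peaks too. Its level of RNA was not read here.

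Pax3 and Pax7 direct neural crest and skeletal muscle precursors. They differed in the EZHIP list. Pax3 (ENSMUSG00000004872.9, chr1:78097842-78193709, - strand) had its start site in a K27R peak of 67.8 kb (chr1:78165401-78233200) and a K27M peak of 38.6 kb (chr1:78179601-78218200). No EZHIP peak touched its body or its 50 kb window, and the nearest was 112.7 kb from the start site. The body cover was 41.9 kb in K27R cells, 14.1 kb in K27M cells and 0 kb in EZHIP cells. Pax7 (ENSMUSG00000028736.6, chr4:139292977-139389445, - strand) lay wholly in a K27R peak of 616.0 kb (chr4:139208801-139824800), with 71.8 kb of its 96.5 kb covered in K27M cells and 61.8 kb in EZHIP cells. Its start site was in a K27M peak of 70.6 kb (chr4:139356401-139427000) and an EZHIP peak of 53.2 kb (chr4:139361201-139414400). Both lists also covered a second stretch further into the gene, and in both 7 of its 9 exon blocks were touched.

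The absence of EZHIP peaks at Pax1 and Pax3 was set against genes with K27M peaks at least as wide, which include far wider ones. Among the 1911 autosomal genes in both the K27R and the K27M list, 76.3% were in the EZHIP list. Of the 1160 with a K27M peak at least as wide as that of Pax1, 87.2% were in the EZHIP list. Of the 329 with a K27M peak at least as wide as that of Pax3, 287 (87.2%) were. Pax3 was therefore one of a minority of genes with a wide K27M peak and no EZHIP peak at the start site, a description from 1 library of each kind.

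**Figure D3:**
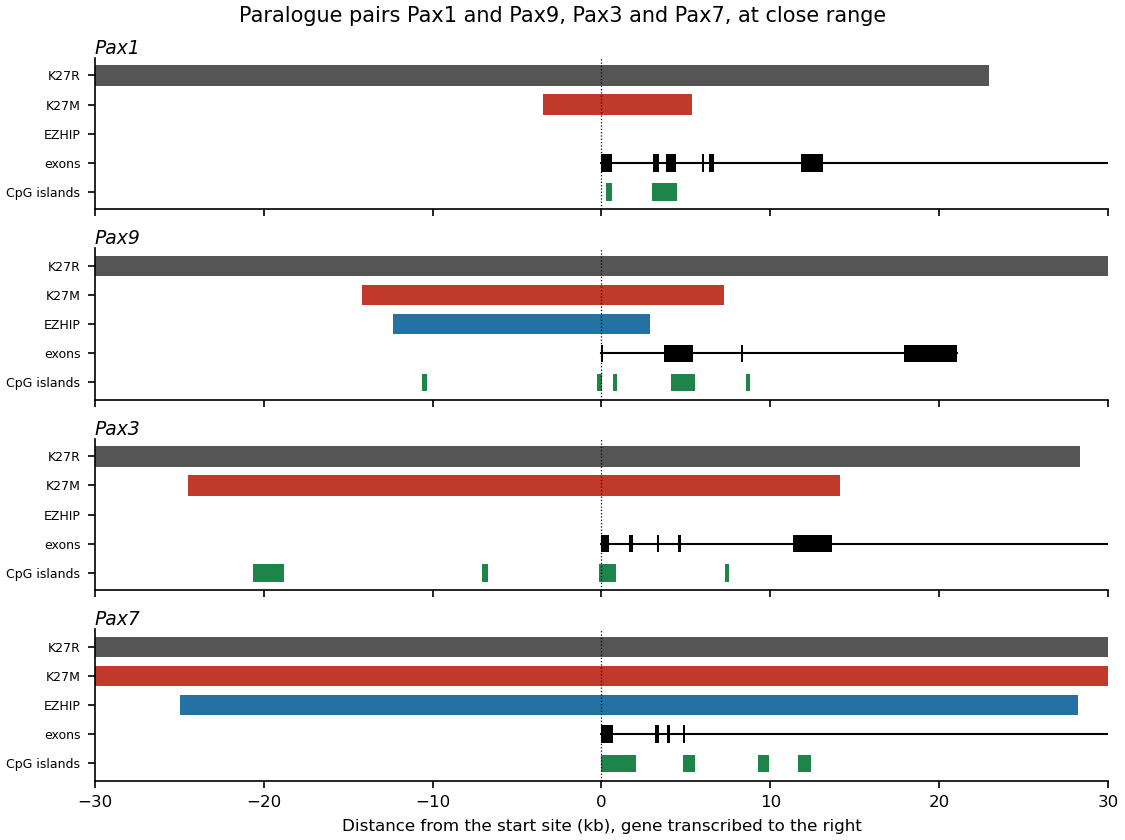
Peaks of the 3 lists within 30 kb of the start sites of Pax1, Pax9, Pax3 and Pax7, by distance in kb (0 at the dotted line, transcription to the right, peaks cut at the edge of the plot), with exon blocks in black and CpG islands in green. Pax1 and Pax3 have no EZHIP peak, and the EZHIP peak of Pax9 ends 2.85 kb into the gene, before the second start group at 3.87 kb.

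Pax4 and Pax6 act in the endocrine pancreas, and Pax6 also in the eye and brain. Pax4 (ENSMUSG00000029706.8, chr6:28392334-28399353, - strand) had the narrowest K27R peak of the family, 38.0 kb (chr6:28383401-28421400), and peaks of 11 kb in K27M cells (chr6:28395601-28406600) and 10.0 kb in EZHIP cells (chr6:28397001-28407000). Cover of its 7.02 kb body was complete in K27R cells, 3.75 kb in K27M cells and 2.35 kb in EZHIP cells. Its EZHIP peak began 0.4 kb further upstream than the K27M peak, the only case of 6 in which the EZHIP peak at a Pax start site was not wholly inside the K27M peak. Pax4 had no CpG island in its body and 2 CG in its promoter.

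Pax6 (ENSMUSG00000027168.12, chr2:105509053-105543317, + strand) had its start site in peaks of 131.4 kb in K27R cells (chr2:105406001-105537400), 51.6 kb in K27M cells (chr2:105484601-105536200) and 46.0 kb in EZHIP cells (chr2:105487801-105533800). The body of 34.3 kb had cover of 28.3, 27.1 and 24.7 kb in these lists. The peak in K27R cells was longer than the K27M peak by 78.6 kb upstream but by only 1.2 kb downstream. All 12 groups of Pax6 transcript starts lay in peaks of all 3 lists, and 13 of its 15 exon blocks touched the EZHIP peak. Neither Pax3, Pax4 nor Pax6 shared its K27R region with another protein-coding start site.

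At the start sites the K27M peaks were inside the K27R peaks at all 8 genes, and their widths ran from 2.88% of the K27R width at Pax1 to 66.3% at Pax2. The EZHIP peaks were 44.2% to 90.9% as wide as the K27M peaks over 6 genes, with a median of 73.2%. With peaks up to 10 kb apart joined, these shares ran from 46.3% to 97.6%, with a median of 90.0%. Joining moved Pax2 to 97.6% and Pax5 to 93.3%, and it moved Pax7 the other way, from 75.4% to 46.3%, since its K27M peak became 114.8 kb and its EZHIP peak stayed at 53.2 kb. The EZHIP list held further Pax7 peaks of 1.8 and 31.8 kb. They stayed apart because the EZHIP start-site peak ended 28.2 kb into the gene and the next began at 39.6 kb, beyond the limit of 10 kb. The value of 46.3% thus depends on that limit. At Pax1 and Pax9 the K27M peak was shorter than the K27R peak chiefly on the upstream side, by 279.0 and 328.8 kb. The upstream side was also the more shortened at Pax2 (159.6 kb against 2.4 kb), Pax6 (78.6 against 1.2 kb) and Pax7 (397.8 against 147.6 kb). At Pax5 it was the downstream side, by 261.0 kb against 9.4 kb upstream. At Pax3 and Pax4 the sides were close (15.0 and 14.2 kb, 14.8 and 12.2 kb). These lengths compare the start-site peaks only, since further K27M peaks lay in the K27R regions of Pax1, Pax9, Pax2, Pax5 and Pax7. K27M peaks covered 62.2, 114.0, 368.4, 150.6 and 150.2 kb of those regions in all. At Pax5 and Pax7 some of them lay downstream of the start-site peak, so the shortened side was not free of K27M peaks. The regions of Pax3, Pax4 and Pax6 held 1 K27M peak each.

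Among genes with a start site in a K27R peak, the K27M window cover of Pax2, Pax5, Pax7 and Pax6 was reached by 37, 68, 99 and 323 of 6735 genes, and their EZHIP window cover by 2, 49, 126 and 261. The 6735 genes include those on the X chromosome, which the comparisons of K27M peak width left out. Of genes in the K27R and K27M lists, 73.4% were in the EZHIP list with the X chromosome and 76.3% without it. For Pax3, Pax9, Pax4 and Pax1 the numbers in K27M cells were 571, 1079, 1781 and 2037. In EZHIP cells they were 1146 for Pax9 and 1622 for Pax4, while Pax1 and Pax3 had no cover. The median window cover of these 6735 genes was 71.6 kb in K27R cells, 1.47 kb in K27M cells and 1.2 kb in EZHIP cells. For the 8 Pax genes it was 79.5, 45.1 and 30.6 kb. The window holds at most 100 kb and is filled at several genes in K27R cells, so that it does not show the difference in peak width there (338.4 kb against 96.8 kb, above). For genes with a start site in the K27M or EZHIP list, the medians were 14.8 and 12.4 kb. Pax1 (8.8 kb in K27M cells) and Pax4 (11 kb and 10.0 kb) lay below these, and Pax9, Pax3, Pax6, Pax7, Pax5 and Pax2 lay above the K27M median.

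**Figure D4:**
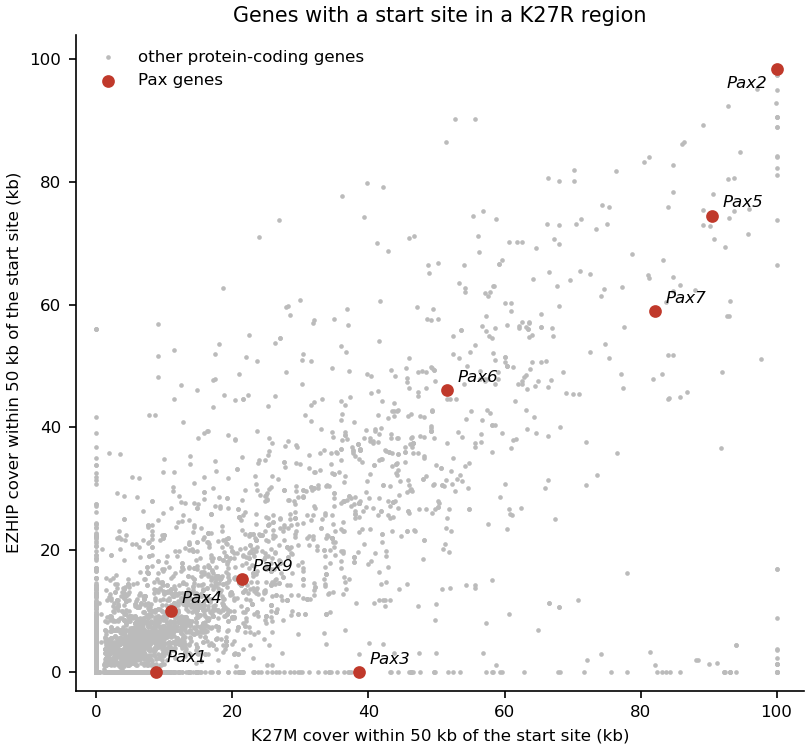
Cover in kb within 50 kb of the start site in K27M cells (horizontal axis) and EZHIP cells (vertical axis) for the 6735 genes with a start site in a K27R peak, with the 8 Pax genes in red and the other genes in grey (1 library per axis). Pax2 sits at the right edge, where the K27M window is filled, and at 98.4 kb of EZHIP cover, and Pax1 and Pax3 lie on the horizontal axis at 8.8 and 38.6 kb. Genes on the X chromosome are among the grey points.

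The CpG islands of the Pax gene bodies followed the same division by gene. Of 28 islands, 27 touched a peak of the K27R list, 26 one of the K27M list and 21 one of the EZHIP list. Of all 27078 islands found, 25.2%, 11.4% and 9.65% did. Both islands of Pax1 and both of Pax3 were outside EZHIP peaks. Pax9 had 2 of 4 islands in EZHIP peaks and 3 in K27M peaks, and the island of 1398 bp at chr12:57796871-57798268 was in the K27R and K27M peaks but not the EZHIP peak. All islands of Pax2 (5), Pax5 (3), Pax7 (4) and Pax6 (7) touched peaks of every list. Of the start sites themselves, 5 of 9 were in an island, those of Pax2, Pax3, Pax6, Pax7 and Pax9. For genes with a start site in a K27R peak and in an island, the K27M list held 52.1% and the EZHIP list 44.0%, and of these 5 Pax genes all were in K27M peaks and 4, all but Pax3, in EZHIP peaks. With the start group of most transcripts, 5 starts were again in an island, but those of Pax1, Pax2, Pax3, Pax5 and Pax7, of which 3 were in EZHIP peaks.

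Genes that work with or downstream of Pax proteins were read in the same way. Both lists of such genes were written with earlier results of these data known. Their counts are therefore descriptive and do not test an excess over all genes. Of 12 genes of the sine oculis homeobox, Eya and Dach families, which form a regulatory network with Pax proteins in organ formation, 6 had their start site in a K27R peak, 4 in a K27M peak and 3 in an EZHIP peak, where 30.1%, 9.02% and 7.73% of all genes did. The 3 in all lists were Six2 of nephron progenitors and Six3 and Six6 of the eye field, with start-site peaks of 29.4, 76.6 and 57.4 kb in K27M cells and 13.6, 47.8 and 32.0 kb in EZHIP cells. Dach1 had a K27M peak of 7.2 kb, and the nearest EZHIP peak was 0.984 kb from its start site. Dach2, on the X chromosome, was in the K27R list only, with the nearest K27M peak 0.282 kb from its start site. Of 16 target genes of Pax proteins known from other tissues, 8 were in the K27R list and 6 in both of the other lists, against the same shares of all genes and 6.6% in all 3 lists. These 6 were Nkx3-2 and Msx1, which follow Pax1 and Pax9, Ret and Gata3 of the kidney, the muscle gene Myod1, and the neuronal gene Neurog2. The widest K27M peak among them was 53.4 kb, at Nkx3-2, with 32.2 kb in EZHIP cells.

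The gene most like each Pax gene in window cover over the 3 lists was found by the sum of absolute differences in percentage points. It was Grik3 for Pax1 (0.996 points), Col20a1 for Pax9 (4.37), H2-T3 for Pax2 (0.568), C1qc for Pax5 (2.12), Crhr1 for Pax7 (3.09), Galt for Pax4 (1.75) and Lhx4 for Pax6 (5.75). For Pax3 the closest gene, Smok2b, was 13.3 points away, the largest distance of the family. Its windows were covered by 73.5%, 46.3% and 0%, against 67.9%, 38.6% and 0% at Pax3. The values rest on 3 libraries.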

How the data were processed

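H3K27me3 ChIP-Seq was done on MNase-digested chromatin with antibody C36B11 of Cell Signaling. By the study's methods, the authors aligned reads with bowtie1 to mm9 and a reference genome of another species and called broad peaks with MOSAiCS-HMM. Bowtie 1.0.0 and deepTools are named in the submitters' processing notes. Whether the scaling entered the calls, and whether the lists share 1 caller run, is not given in the sources used here. The deposited lists hold peak positions only, with no score, and no other unit. Depth per sample is therefore unknown, and no test was run because each group had 1 library.

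Peaks were set against GENCODE vM1 genes and the mm9 sequence with Python 3.11.15, numpy 2.4.6, pandas 2.3.3 and numba 0.67.0. Overlap meant at least 1 bp. CpG islands scored 17 per CG and -1 per other base, with a minimum length of 200 bp, a G+C content of 50% or more and an observed/expected CpG ratio above 0.6, which gave 27078. The first form of the finder also scored the G of each CG at -1, and it was replaced after its values had been seen. The interval and island tools were tested on simulated data. Transcript starts within 500 bp formed a group. RefSeq promoters (GRCm38.p6), 10 entries for 7 of the genes, each matched mm9 exactly once.

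Members and lists were chosen with earlier results of these data known. All 9 Pax genes are named, with up to 4 nearest genes of a shared K27R region, the gene most alike in window cover on another chromosome or over 1 Mb away, and partner and target genes in K27M or EZHIP peaks. Dach2 is named for a K27M peak near its start site.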

Additional observations from a re-analysis of the deposited data

How the results depend on the processing

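The counts of Pax start sites in peaks stayed at 8, 8 and 6, for the same genes, with peaks of at least 2000 or 5000 bp, with peaks up to 10 kb apart merged, and with a peak allowed within 5 kb. With the start group of most transcripts, an alternative chosen after seeing the data, they were 8, 8 and 5, Pax9 leaving the EZHIP list. Windows of 10 kb on each side raised the covered share to 76.1% in K27M cells and 57.1% in EZHIP cells, against 44.9% and 33.7% for 50 kb. Islands of at least 500 bp left 13, 13 and 10 in K27R, K27M and EZHIP peaks, against 27, 26 and 21 of 28 islands. The total fell as well, since shorter islands drop out. Among these is the island of Pax8 (320 bp), the only one of the 28 outside K27R peaks. Scoring the G of each CG at -1 as well, which was the first form of the island finder and became an alternative after its values were seen, gave 26 islands, with 25, 24 and 20 in the lists. Among single distances, the nearest EZHIP peak to Pax3 moved to 309.5 kb with peaks of at least 5000 bp, and those of Pax8 to 704.3 kb (K27M) and 812.5 kb (EZHIP). From the nearest of all Pax8 starts, the nearest K27R peak was 19.6 kb away. No paired analysis was possible because each group had 1 library. Without depth or replicates, a peak missing from a list cannot be told apart from one below the calling threshold.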
